A study of Mus musculus with 3 samples.

Results

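The genes described here are 10 secreted growth and tissue repair factors, namely Vegfa, Pdgfa, Pdgfb, Hbegf, Areg, Ereg, Igf1, Osm, Lif and Thbs1. They were taken as a named list, set with earlier results of these data known but with no threshold on their values, and all 10 are among the 22238 genes listed for all 3 libraries. RNA was sequenced from monocytes of the bone marrow, monocytes of the spinal cord and monocyte-derived antigen-presenting cells (APCs) of the spinal cord. All 3 populations came from wild-type female mice on a C57BL/6J background, 10 to 12 weeks old, in which experimental autoimmune encephalomyelitis (EAE, a mouse model of multiple sclerosis) had been induced with a myelin oligodendrocyte glycoprotein peptide in complete Freund's adjuvant and 250 ng of pertussis toxin, given 2 and 24 hours later. Cells were sorted at days 14 to 15. Bone marrow monocytes were CD45+ CD11b+ Ly6Chi and negative for Ly6G and CD11c. Spinal cord monocytes were CD45+ CD11b+ CD64+ Ly6Chi Ly6G-, and APCs carried the same markers with low or no Ly6C. One label of the APC sample names the bone marrow as its origin, whereas its title and its tissue entry name the spinal cord, and the latter were used. Each spinal cord library held cells of 18 mice from 3 experiments and the bone marrow library cells of 13 mice from 2 experiments, so there was 1 pooled library per population and no unimmunized group. Cord tissue was digested with collagenase and DNase, whereas marrow was flushed and enriched for monocytes with a kit, so tissue and isolation cannot be told apart. The populations are named marrow monocytes, cord monocytes and APCs hereafter.

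Growth factors of this kind act on neighbouring cells. VEGF-A drives the growth and leakiness of blood vessels, and the PDGF chains act on pericytes, fibroblasts and oligodendrocyte precursors. HB-EGF, amphiregulin and epiregulin are made as membrane-bound precursors, are shed by proteases and bind receptors of the EGF receptor family. IGF-1 is a survival factor for neurons and myelin-forming cells. Oncostatin M and LIF belong to the IL-6 family and signal through receptors that contain gp130, the product of Il6st. Thrombospondin-1, encoded by Thbs1, is a matrix-associated protein that restrains vessel growth, binds CD36 and CD47 and can activate latent TGF-beta.

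Levels are given as reads, the authors' estimated counts rounded to whole numbers, and as TPM (the share of all transcripts, corrected for gene length), brought to an equal sum over the common genes. The reads of the common genes summed to 32115707 in marrow monocytes, 26116588 in cord monocytes and 28209327 in APCs. Fold changes are given as the log2 ratio of the reads of 2 libraries, scaled by size factors. The call required a 98% interval of the log2 ratio that lay wholly past a 2-fold change and a TPM above 3 in either library. The interval covers counting error only. With 1 library per population, a call compares 2 libraries, has no replicate check and carries no p-value. The APC values were made on a smaller transcript set than the monocyte values, so the population and the transcript set cannot be told apart. Markers of other cells were present in part, and their sums are given here for the lists not taken up beside a gene. The 6 oligodendrocyte genes summed to 103, 77.3 and 74.8 TPM in marrow monocytes, cord monocytes and APCs (Mog at 0 reads in the first), the 6 astrocyte genes to 3.01, 14.0 and 18.1 (Gjb6 at 0 in all), the 4 genes of CNS-associated macrophages to 5.48, 7.83 and 18.7 and the 5 of conventional dendritic cells to 40.8, 20.7 and 25.1. The last sum follows Flt3, which went from 37.8 to 3.65 and 6.65 TPM, whereas Batf3 and Clec9a were called higher in cord than in marrow monocytes and Zbtb46 higher in APCs than in cord monocytes, with 2, 31 and 241 reads. All 7 monocyte lineage markers (Ly6c2, Ccr2, Csf1r, Fcgr1, Itgam, Cd68 and Adgre1) were over 3 TPM in every library. Markers of neurons, fibroblasts, B cells and mast cells or basophils stayed at or under 3 TPM in every library.

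Vegfa, Pdgfa, Pdgfb, Hbegf, Areg, Osm, Lif and Thbs1, 8 of the 10 genes, were called higher in cord than in marrow monocytes, none was called lower, and Igf1 and Ereg were not called. Only Thbs1 and Osm were over 3 TPM in marrow monocytes, and the other 8 had at most 54 reads there. Of all common genes, 6.23% were called higher and 4.83% lower in this comparison. Of the 10072 genes over 3 TPM in 1 of these libraries the corresponding shares were 13.8% and 10.7%. The 8 called genes are the 8 that passed the TPM threshold, 6 of them through the cord library alone. The median log2 ratio of the 9 genes with a measurable fold change was 6.74, and 6.21 with Areg set at its lower bound, against 0.20 over the 16699 common genes with reads in either library and -0.15 over the 10072 genes above the TPM threshold. Fewer cells that express a gene and less RNA per cell cannot be told apart in such bulk libraries.

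**Figure D1:**
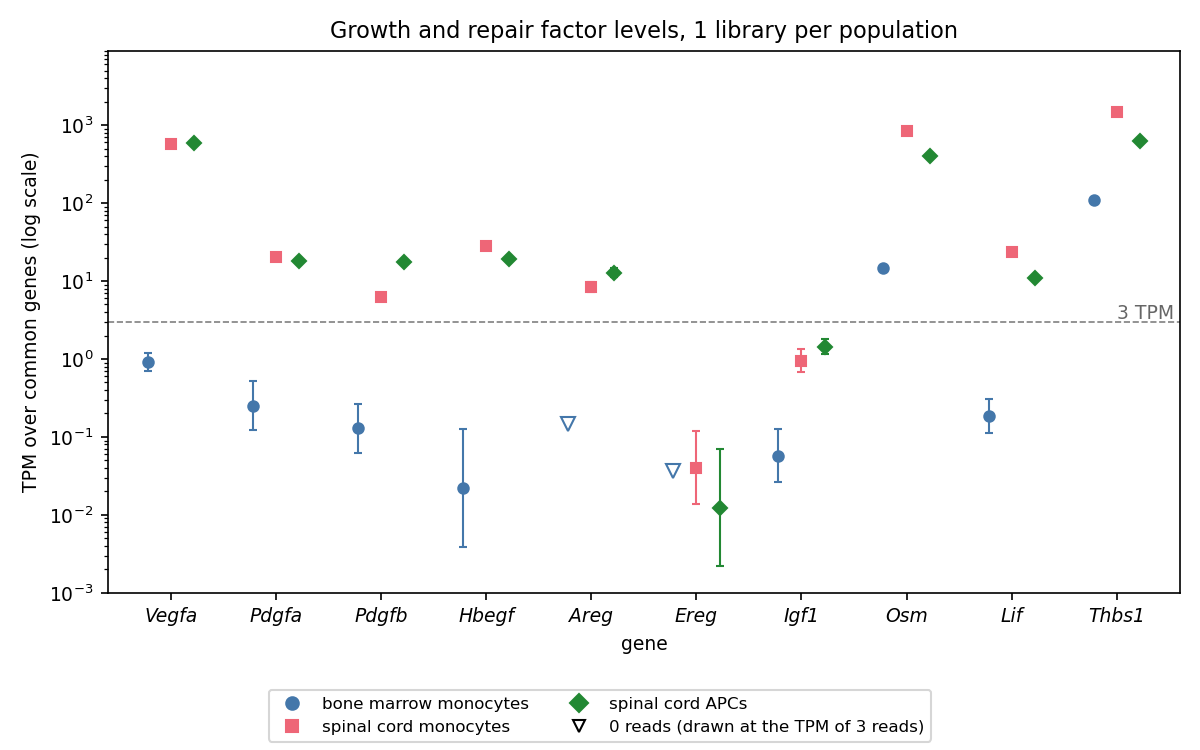
TPM over the common genes (log scale) of each of the 10 genes in the 3 libraries, with 95% Wilson intervals of the read counts as bars. Open triangles mark 0 reads and are drawn at the TPM of 3 reads, and the dashed line marks 3 TPM. Vegfa, Osm and Thbs1 lie between 401 and 1491 TPM in both cord libraries, whereas Igf1 and Ereg stay under the line in all 3.

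Among the vessel and mesenchymal factors, Vegfa had 54 reads in marrow monocytes, 25796 in cord monocytes and 31412 in APCs. On the TPM scale these levels were 0.916 (95% interval 0.702 to 1.20), 567 (95% interval 560.1 to 574) and 589 (95% interval 582 to 595). Vegfa therefore stood at rank 306 of all common genes in cord monocytes and at rank 10457 in the marrow. Its log2 ratio between the monocyte libraries was 9.36 (98% interval 8.93 to 9.84), the rank 33 among the 10072 genes over 3 TPM.

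Pdgfa, the A chain of platelet-derived growth factor, had 7, 586 and 578 reads, or 0.252, 20.6 and 17.9 TPM in marrow monocytes, cord monocytes and APCs. Pdgfb, the B chain, had 7, 307 and 921 reads, or 0.129, 6.18 and 17.4 TPM in the same order. In GRCm38 Vegfa lies on chromosome 17 from 46016993 to 46032369, Pdgfa on chromosome 5 from 138976014 to 138997370 and Pdgfb on chromosome 15 from 79995874 to 80014977. The 2 chains thus had the same number of reads in the marrow, where their 95% intervals of TPM overlapped. In cord monocytes Pdgfa was the higher of the 2, and in APCs their TPM intervals overlapped again. Log2 ratios between the monocyte libraries were 6.74 (98% interval 5.67 to 8.15) for Pdgfa and 5.81 (98% interval 4.73 to 7.22) for Pdgfb. The antisense gene 6330403L08Rik overlaps Pdgfa over 2315 bases and had 7 and 161 reads in marrow and cord monocytes. It is not on the list of genes quantified in APCs, and whether the counting used strand is not given in the sources used here.

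Hbegf, whose product binds the EGF receptor and also serves as the diphtheria toxin receptor in other species, had 1 read in marrow monocytes, 1150 in cord monocytes and 860 in APCs. Its TPM was 0.0221 (95% interval 0.00390 to 0.125), 28.1 (95% interval 26.5 to 29.8) and 19.4 (95% interval 18.2 to 20.8). With a single read in the marrow its log2 ratio of 9.90 had a wide interval, with 98% bounds of 7.92 and 13.40. With a pseudocount of 1 on TPM, which is larger than its marrow level, the value was 4.83. Areg, which encodes amphiregulin, had 0, 153 and 258 reads in the same order. Set against a floor of 3 reads in the marrow library, it was at least 71.2-fold higher in cord monocytes and at least 108-fold higher in APCs. Its TPM was 8.41 (95% interval 7.18 to 9.85) in cord monocytes and 12.8 (95% interval 11.3 to 14.5) in APCs. In the marrow, with 0 reads, the upper 95% bound was 0.188 TPM, and the floor of 3 reads is worth 0.147 TPM.

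Ereg, which encodes epiregulin, had 0 reads in marrow monocytes, 3 in cord monocytes and 1 in APCs. These counts are at or under the floor of 3 reads, which is worth 0.0363, 0.0402 and 0.0371 TPM, and no fold change is given. Ereg and Areg are neighbours on chromosome 5 of GRCm38, Ereg from 91074622 to 91093646 and Areg from 91139599 to 91148432, with 46.0 kb and no annotated gene between them. Of these adjacent genes with related products, one was detected in both cord libraries and the other was not detectable at this depth.

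Osm and Lif, the IL-6 family members, form a second neighbouring pair, on chromosome 11 of GRCm38. Osm lies from 4236420 to 4241026 and Lif from 4257557 to 4272514, with 16.5 kb and no annotated gene between them. Osm had 576 reads in marrow monocytes, 30515 in cord monocytes and 16911 in APCs, and Lif had 15, 1627 and 857. Both genes were lowest in the marrow and highest in cord monocytes, but Osm was the more abundant in every library. On the TPM scale Osm stood at 14.8, 830.2 and 401 and Lif at 0.186, 23.7 and 10.9. The log2 ratio of Lif between the monocyte libraries was 7.18, with an upper 98% bound of 8.12, and that of Osm 6.21 (98% interval 6.07 to 6.35). The interval of Lif lay wholly above that of Osm on reads, but with a pseudocount of 1 on TPM the order turned, with 4.38 for Lif and 5.71 for Osm. Osm is also made by neutrophils, and the 8 neutrophil genes measured here summed to 7243 TPM in marrow monocytes, 1070 in cord monocytes and 1150 in APCs, with none at 0 reads in any library. Most of these sums was S100a8 and S100a9, which monocytes also express. Ngp, at 24.3 and 157 TPM, and Ltf, at 9.76 and 34.1 TPM, were called higher in APCs than in cord monocytes, although every sort was gated on Ly6G- cells. Elane, at 3.50 and 0.849 TPM, was called lower in the same step, and the others were not called. The part of neutrophils in the levels of Osm was not tested.

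Thbs1, on chromosome 2 of GRCm38 from 118111876 to 118127133, was the most abundant of the 10 genes in all 3 libraries. It had 11779 reads in marrow monocytes, 158491 in cord monocytes and 73149 in APCs, or 109.8, 1491 and 627 TPM. It accounted for 87.0% of the summed TPM of the 10 genes in the marrow, 50.1% in cord monocytes and 36.9% in APCs. Its log2 ratio of 4.23 (98% interval 4.20 to 4.26) between the monocyte libraries was the lowest of the 8 called genes on reads. With a pseudocount of 1 on TPM it was 3.75, above Areg at 3.23 and Pdgfb at 2.67. Platelets store thrombospondin-1 and PDGF in their granules. The 4 platelet and megakaryocyte genes summed to 33.6 TPM in the marrow, 7.75 in cord monocytes and 14.8 in APCs, and none was at 0 reads. Ppbp had 380, 3 and 2 reads in these libraries and was called lower in cord than in marrow monocytes. Itga2b had 160, 12 and 25 reads, and Gp9 had 23, 1 and 2. Pf4 was the only one over 3 TPM in the spinal cord, at 6.83 in cord monocytes and 14.1 in APCs. The authors also list Pf4 as a signature gene of CNS-associated macrophages. The part of platelets in the level of Thbs1 was not tested.

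Igf1, on chromosome 10 of GRCm38 from 87858265 to 87937042, had 6 reads in marrow monocytes, 34 in cord monocytes and 78 in APCs, which is 0.0575, 0.950 and 1.43 TPM. It stayed under 3 TPM in every library and so was outside the call. Its log2 ratio between the monocyte libraries was 2.86 (98% interval 1.57 to 4.46) on reads and 4.17 on reads per effective length. The effective length of Igf1, which depends on the isoforms counted, was 4887 bases in marrow monocytes, 1846 in cord monocytes and 2613 in APCs, so its values depend on length more than those of the other 9 genes.

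The stretches just before the start sites of Areg, Lif and Vegfa are shown because these 3 genes were called higher together in the cord and their RefSeq start sites lie at, or a few bases from, the start of the annotated gene. RefSeq promoters (GRCm38.p6) were at hand for 5 of the 10 genes, the other 2 being Pdgfa and Igf1. Each window ran from 250 bases before to 50 bases after the start site, and bases 250 to 21 before it are printed 5′ to 3′ on the strand of the gene. Capitals mark matches on either strand to AP-1 (TGACTCA), CRE (TGACGTCA), the core of the hypoxia response element (ACGTG), the TATA box (TATAAA) or the NF-kappa B consensus. The Areg stretch lies at chr5:91139349-91139578 (plus strand), the Lif stretch at chr11:4257318-4257547 (plus strand) and the Vegfa stretch at chr17:46032398-46032627 (minus strand).
Areg: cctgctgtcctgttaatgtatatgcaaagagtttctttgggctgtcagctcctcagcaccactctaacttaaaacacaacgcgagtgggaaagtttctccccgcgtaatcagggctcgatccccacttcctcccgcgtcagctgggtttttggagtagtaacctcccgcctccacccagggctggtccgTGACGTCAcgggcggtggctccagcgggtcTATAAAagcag
Lif: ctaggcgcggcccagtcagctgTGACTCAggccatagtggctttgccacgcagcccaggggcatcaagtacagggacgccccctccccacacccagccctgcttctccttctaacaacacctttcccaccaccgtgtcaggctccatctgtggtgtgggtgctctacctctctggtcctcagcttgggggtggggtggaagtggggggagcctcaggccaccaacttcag
Vegfa: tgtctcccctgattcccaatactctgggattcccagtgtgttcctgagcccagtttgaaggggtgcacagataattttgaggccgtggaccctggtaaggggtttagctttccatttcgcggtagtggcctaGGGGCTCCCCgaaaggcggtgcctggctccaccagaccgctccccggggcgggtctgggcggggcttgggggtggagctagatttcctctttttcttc

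The Areg stretch held a CRE, which reads the same on both strands, at positions -61 to -54 from the start site and a TATA box at -31 to -26. The Lif stretch held an AP-1 match at -228 to -222, and the Vegfa stretch an NF-kappa B match at -118 to -109. Over all 32851 promoter windows of the same length, 1.79% held the CRE, 13.62% the TATA box, 5.20% AP-1, 4.51% the NF-kappa B consensus and 19.62% the hypoxia core. The 3 windows shown shared none of these matches, and no match overlapped another. RefSeq gives Vegfa a second start site, inside the annotated gene, and the stretch before it, chr17:46025184-46025413, held a hypoxia core on the other strand at -211 to -207, which the window shown did not. A match is a description of the letters and not of a bound site.

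Between cord monocytes and APCs the 10 genes did not share a direction. Pdgfb was called higher in APCs, Thbs1 was called lower, and the other 8 were not called. In this comparison 0.845% of all common genes were called higher and 0.742% lower, or 1.93% and 1.70% of the 9734 genes over 3 TPM in 1 of these libraries. The median log2 ratio of the 9 genes with a measurable fold change was -0.18, against -0.01 over the 17111 common genes with reads in either library and -0.04 over the 9734 genes above the TPM threshold. Once a coefficient of variation of 0.2 was assumed for each library, neither Pdgfb nor Thbs1 was called, whereas the 8 calls between the monocyte libraries were also made at 0.4.

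**Figure D2:**
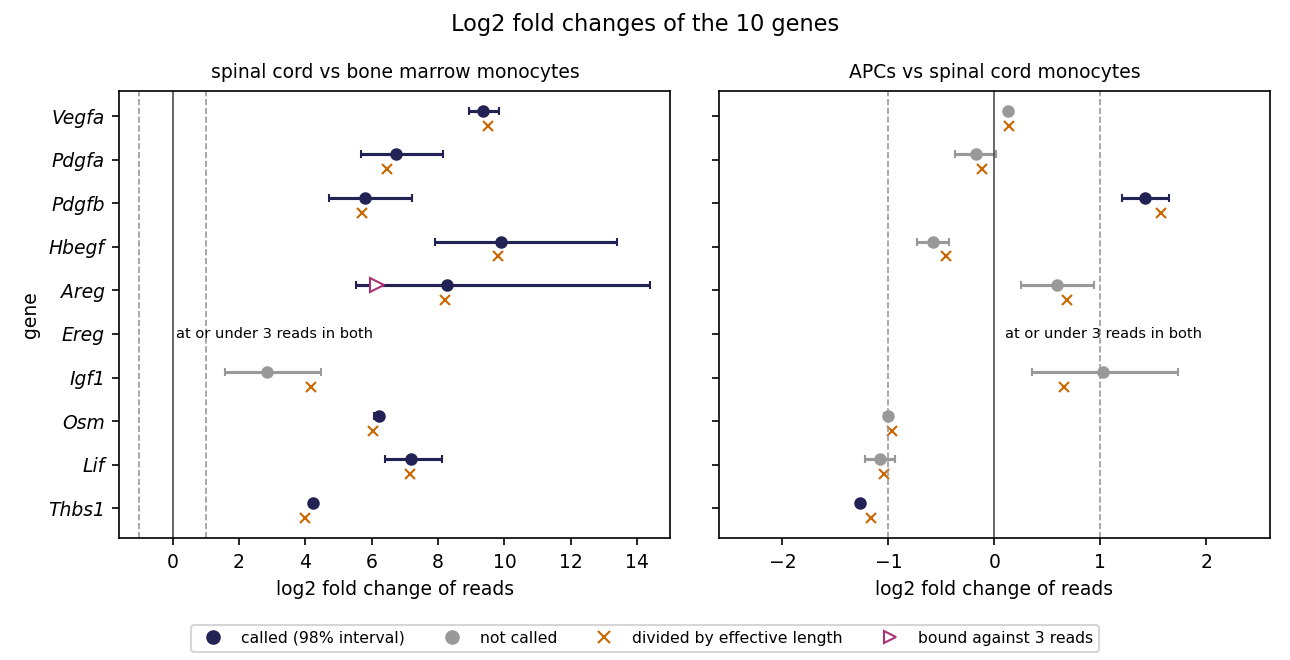
Log2 ratios of reads with 98% intervals for cord against marrow monocytes (left) and for APCs against cord monocytes (right), on different horizontal scales. Crosses are reads per effective length, the open triangle is the lower bound for Areg and dashed lines mark a 2-fold change. On the left every called gene lies beyond 4, and on the right only Pdgfb and Thbs1 have intervals beyond the dashed lines.

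Pdgfb was the gene called higher in APCs, with a log2 ratio of 1.43 (98% interval 1.21 to 1.65) on reads and 1.57 on reads per effective length. It went from 307 to 921 reads, while Pdgfa stood at 586 and 578, so that the chains differed by a factor of 1.03 in TPM in APCs, with overlapping 95% intervals. The log2 ratio of Pdgfa was -0.18 (98% interval -0.37 to 0.02). Vegfa had a log2 ratio of 0.13 (98% interval 0.10 to 0.16), beyond counting error but far from a 2-fold change.

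Microglia and endothelial cells are also known to express Pdgfb. The 6 microglia genes (Tmem119, P2ry12, Sall1, Siglech, Gpr34 and Fcrls) summed to 12.9 TPM in marrow monocytes, 92.0 in cord monocytes and 239 in APCs. All 6 were over 3 TPM in both cord libraries and called higher in cord than in marrow monocytes, with Sall1 at 0 reads in the marrow, and 5 of them were called higher still in APCs. They thus had the same direction as Pdgfb, which was called, and Igf1, which was not, and their part in these values was not tested. The 8 endothelial genes summed to 10.6 TPM in the marrow, 50.7 in cord monocytes and 28.6 in APCs, with none called in the last step. Of these, 4 (Cldn5, Slco1a4, Tek and Emcn) had 0 reads in the marrow and none had 0 reads in the cord, and their part in the levels of Pdgfb and Vegfa was not tested either.

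Thbs1 was the gene called lower in APCs, with a log2 ratio of -1.27 (98% interval -1.29 to -1.26) on reads and -1.17 on reads per effective length. Osm and Lif had values close to this, and the interval of each included a 2-fold change. For Lif the log2 ratio was -1.08 (98% interval -1.22 to -0.94), and for Osm it was -1.01 (98% interval -1.04 to -0.98). These 3 genes were 2.42-fold, 2.12-fold and 2.01-fold lower for Thbs1, Lif and Osm, so the neighbouring cytokine genes had nearly the same ratio in this step although their levels differed.

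Neither detected EGF receptor ligand was called between cord monocytes and APCs. Hbegf had a log2 ratio of -0.58 (98% interval -0.73 to -0.42) and Areg of 0.59 (98% interval 0.26 to 0.94). Their intervals lie on opposite sides of 0. Amphiregulin is also made by regulatory T cells and innate lymphoid cells. The 5 T cell genes (Cd3e, Cd3d, Cd3g, Cd4 and Cd8a) summed to 0.417 TPM in marrow monocytes, 29.0 in cord monocytes and 43.8 in APCs, with 4 of the 5 over 3 TPM in both cord libraries and called higher there than in the marrow, and with Cd3g and Cd4 at 0 reads in the marrow. Their part in the level of Areg was not tested. Igf1, at 34 and 78 reads, had a log2 ratio of 1.03 (98% interval 0.36 to 1.73) on reads, and 0.66 with an interval that reached -0.01 on reads per effective length.

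Effective lengths of the other 9 genes differed little between the transcript sets, with log2 ratios of APCs to cord monocytes from -0.01 for Pdgfb to 0.12 for Vegfa. For Igf1 this ratio was 0.50.

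**Figure D3:**
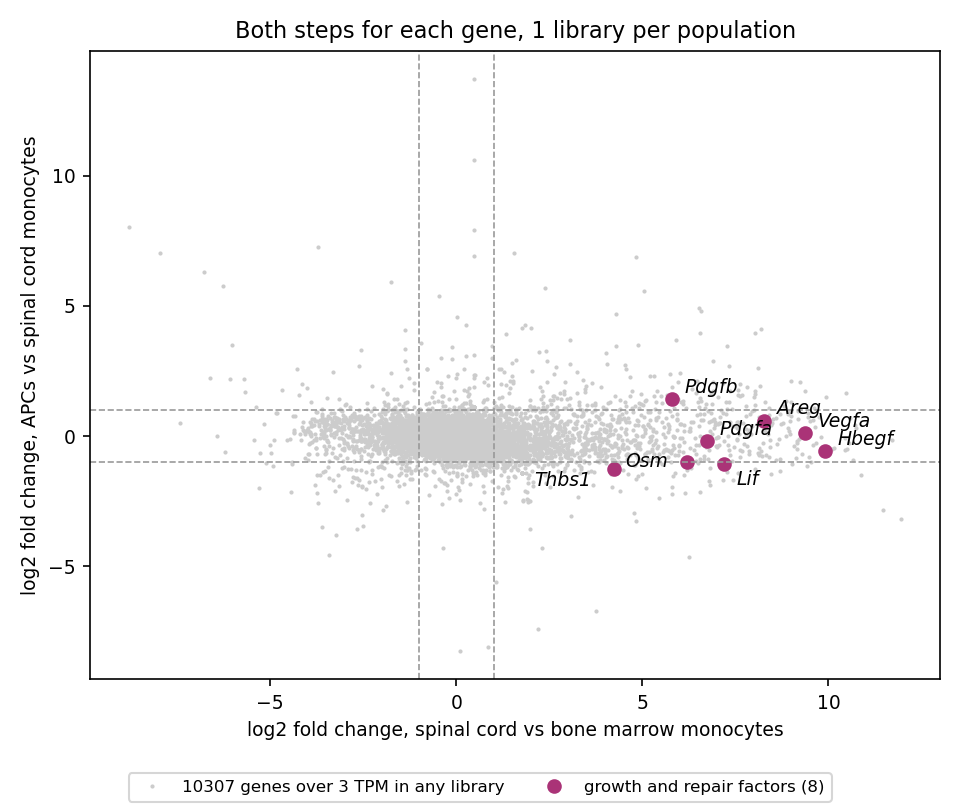
Log2 ratio of reads between the monocyte libraries (horizontal) and from cord monocytes to APCs (vertical) for each gene over 3 TPM in any library (grey) and for the 8 growth and repair factors among them (purple), with dashed lines at a 2-fold change. All 8 lie to the right, from 4.23 for Thbs1 to 9.90 for Hbegf, and spread vertically from -1.27 for Thbs1 to 1.43 for Pdgfb. The horizontal place of Areg depends on the 1 read added to each library.

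APCs were also set against marrow monocytes directly, a comparison that shares its libraries with the other two. The same 8 genes passed the threshold and were called higher and none lower, against 6.41% and 5.39% of all common genes, and 14.0% and 11.8% of the 10190 genes over 3 TPM in 1 of these libraries. All of the 8 but Thbs1 and Osm passed the TPM threshold through the APC library alone. Log2 ratios ran from 2.96 (98% interval 2.93 to 2.99) for Thbs1 to 9.49 (98% interval 9.06 to 9.97) for Vegfa. Pdgfb, at 7.23 (98% interval 6.17 to 8.64), was here above Pdgfa, at 6.56 (98% interval 5.49 to 7.97), with overlapping intervals.

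The order of the 10 genes by TPM, which is corrected for length, differed between the libraries. In cord monocytes it was Thbs1, Osm, Vegfa, Hbegf, Lif, Pdgfa, Areg, Pdgfb, Igf1 and Ereg, and the 95% counting intervals of no neighbouring genes overlapped. In APCs Vegfa stood above Osm, Thbs1 was only 1.06 times as abundant as Vegfa, and the order went on with Hbegf, Pdgfa, Pdgfb, Areg and Lif. There, Hbegf and Pdgfa, Pdgfa and Pdgfb, and Areg and Lif could not be separated by their intervals. In the marrow only Thbs1, Osm and Vegfa could be placed, since the intervals of all neighbours from Pdgfa downward overlapped. The 10 genes summed to 126 TPM in marrow monocytes, 2976 in cord monocytes and 1697 in APCs, and Thbs1, Vegfa and Osm made up 95.3% to 99.5% of these sums.

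The closest relatives of the 10 ligands were mostly low. Of 24 relatives, 6 were over 3 TPM in any library, and 3 were called higher in cord than in marrow monocytes, of 5 above the TPM threshold in these libraries, where 13.8% of all genes were called higher. These were Vegfb, Pgf (placental growth factor, a VEGF relative) and Il6, which all passed the TPM threshold through the cord library alone. Vegfb rose from 1.90 to 8.95 TPM with a log2 ratio of 2.54 and Pgf from 0.0484 to 4.04 TPM with 6.43 (98% interval 4.41 to 9.94, on 1 read in the marrow). Vegfa was therefore the dominant VEGF transcript in both cord libraries, where Vegfc and Vegfd had at most 9 reads. Il6 had 5 reads in the marrow and 946 in cord monocytes, with a log2 ratio of 7.87. Tgfa, a further EGF receptor ligand, had 0, 85 and 249 reads and stayed at or under 2.79 TPM.

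Nrg1, which encodes neuregulin-1, a ligand of ERBB3 and ERBB4, was the most abundant EGF-type gene in all 3 libraries, at 29.3, 54.0 and 29.5 TPM. It was the only relative called between cord monocytes and APCs, with a log2 ratio of -1.34 on reads, and of -0.79 on reads per effective length, which was not past the threshold. None of the thrombospondin relatives Thbs2, Thbs3, Thbs4 and Comp was over 3 TPM in any library, so Thbs1 was the only thrombospondin gene above this level. Clcf1, a further IL-6 family gene, reached 3.71 TPM in APCs, and Nrg2 was at 7.19, 3.79 and 3.87 TPM.

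Of 19 receptor genes, 10 were over 3 TPM in 1 of the monocyte libraries, of which 3 were called higher and 4 lower in cord monocytes, against 13.8% and 10.7% of all genes above the threshold. Receptors for PDGF and for the EGF family were at or under 2.40 TPM in every library, including Pdgfra, Pdgfrb, Egfr, Erbb2, Erbb3 and Erbb4. The libraries thus held transcripts of the ligands and few of these receptors. Flt1, which encodes VEGF receptor 1, rose from 7.06 to 43.1 TPM with a log2 ratio of 2.55, while Kdr, which encodes VEGF receptor 2, was at 0.0661 and 1.99 TPM. The VEGF co-receptors moved in opposite directions, Nrp1 from 88.0 to 24.6 TPM and Nrp2 from 8.77 to 30.6 TPM, with log2 ratios of -1.51 and 2.15.

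Of the receptor genes for the IL-6 family ligands, 2 of 3 were called lower where Osm and Lif were called higher. Lifr, the LIF receptor, fell by 1.86 on the log2 scale, from 29.8 to 8.02 TPM, and Il6st fell by 1.53, from 82.3 to 19.9 TPM. Osmr, the oncostatin M receptor, had 0, 100 and 72 reads and stayed under 1 TPM. Cd36, a thrombospondin receptor, rose from 1.49 to 11.7 TPM with a log2 ratio of 3.08. It passed the TPM threshold through the cord library alone. Cd47, the other such receptor, stood at 297, 286 and 184 TPM in the 3 libraries. Lrp1, a scavenger receptor that takes up thrombospondin-1, was at 171, 188 and 139 TPM without a call. Insr, the insulin receptor, fell from 14.1 to 4.32 TPM, and Igf1r stood at 3.37, 2.93 and 2.82 TPM. No receptor was called between cord monocytes and APCs.

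**Figure D4:**
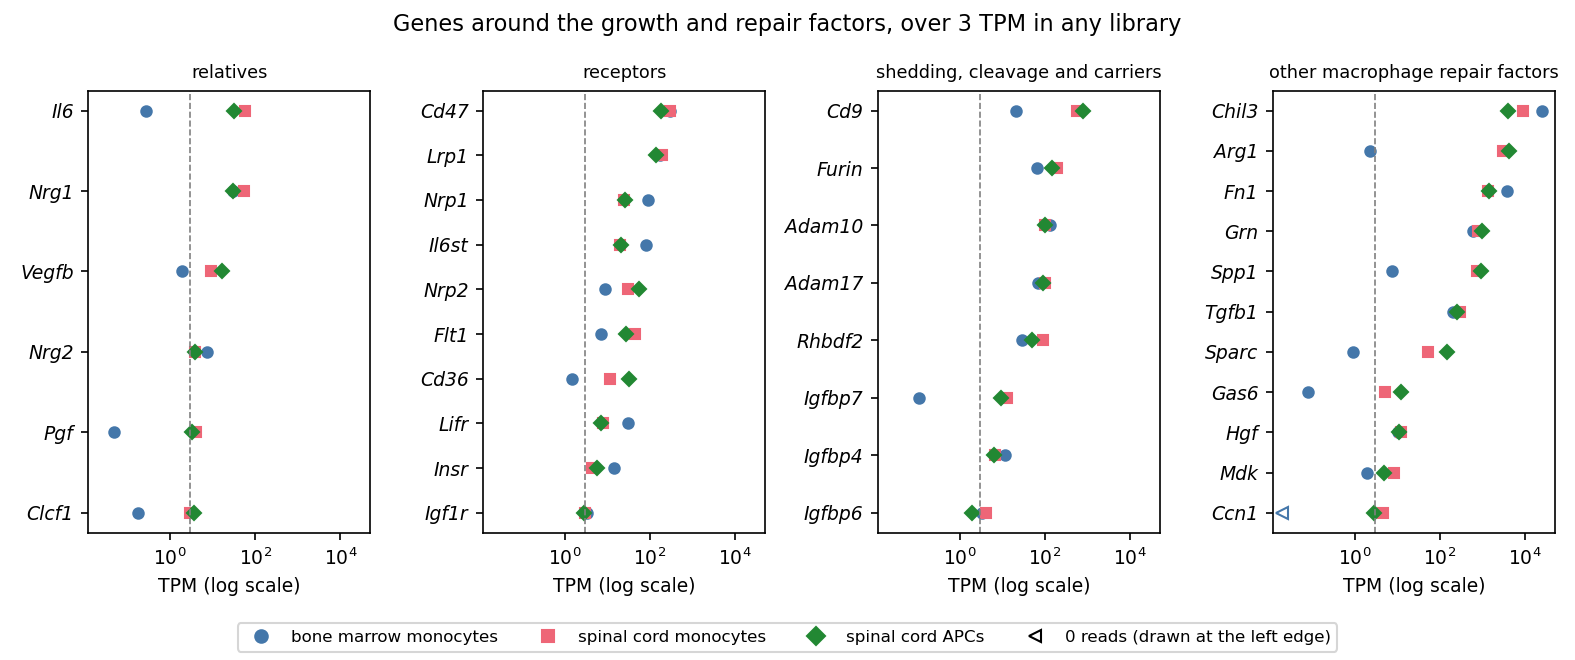
TPM (log scale) in the 3 libraries of the relatives, receptors, processing genes and other repair factors that exceeded 3 TPM in any library, with genes ordered by their highest TPM and the dashed line at 3 TPM. The open triangle marks the 0 reads of Ccn1 and has no place on the scale. Lifr, Il6st, Nrp1, Insr, Fn1 and Chil3 are highest in the marrow, whereas Cd9, Spp1, Sparc and Arg1 are highest in APCs.

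Of 16 genes for shedding, cleavage and carriers, 8 were over 3 TPM in 1 of the monocyte libraries, and 4 of these were called higher in cord than in marrow monocytes and none lower, against the same 13.8% and 10.7%. Cd9, a tetraspanin that associates with the HB-EGF precursor, rose from 20.4 to 562 TPM with a log2 ratio of 5.14. Rhbdf2, a partner of the sheddase ADAM17, rose from 29.6 to 90.1 TPM, and Furin, a convertase that cleaves growth factor precursors, from 66.6 to 192 TPM, with log2 ratios of 1.78 and 1.83. The sheddases were not called, with Adam17 at 68.9 and 99.7 TPM and Adam10 at 129 and 102 TPM. Igfbp7, an IGF-binding protein family member, rose from 2 to 213 reads and passed the TPM threshold through the cord library alone. Igfbp4 and Igfbp6 were at 11.2 and 3.29 TPM in the marrow and 6.59 and 4.14 TPM in cord monocytes, and no gene of this list was called between cord monocytes and APCs.

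Of 19 other repair factors of macrophages, 11 were over 3 TPM in 1 of the monocyte libraries, and 6 were called higher and 2 lower in cord monocytes, again against 13.8% and 10.7%. Arg1 (arginase-1) had a log2 ratio of 10.72, Spp1 (osteopontin) of 6.93, Sparc, a matrix-binding protein, of 6.56, Gas6, a ligand of the receptor MERTK, of 6.08 and Mdk (midkine) of 2.19, and Ccn1, a matrix-associated growth regulator, had 0 reads against 159, at least 74.0-fold higher against the floor. Of the 6 genes called higher, all but Spp1 passed the TPM threshold through the cord library alone. Fn1 (fibronectin) and Chil3, a chitinase-like protein, fell by 1.30 and 1.10 on the log2 scale, from the highest levels of this list in the marrow, 3706 and 24588 TPM. From cord monocytes to APCs, Sparc was called higher, with 53.2 and 148 TPM and a log2 ratio of 1.45, and Chil3 lower, with -1.26. Tgfb1, at 201, 301 and 248 TPM, Grn (progranulin), at 600.5, 797 and 997 TPM, and Hgf, at 10.2, 12.3 and 11.0 TPM, were not called in either step. Sparc is abundant in microglia, and the microglia genes given above had the same direction, with their part not tested.

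The patterns most like those of Vegfa, Osm, Lif and Thbs1, the 4 genes with at least 10 reads in all 3 libraries, were looked up among 9855 genes by the distance between pairs of log2 ratios. Dab2, Ptgs2 and Cd83 were nearest to Vegfa, at distances of 0.37 to 0.41 on the log2 scale. Emp1, Rhov and Ifi205 were nearest to Osm, at 0.28 to 0.36, and Rgl1, Gbp4 and Scimp to Lif, at 0.39 to 0.55. For Thbs1 they were Plekhg4, Mxd1 and Rnd1, at 0.03 to 0.30. Each likeness rests on 3 libraries.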

How the data were processed

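RNA-Seq of 3 pooled libraries was analysed. Per the labels and methods, the authors estimated expression with Salmon 0.14.1 on GENCODE vM22 transcripts (mm10), pooling the transcripts of a gene. The authors deposited estimated counts without normalization, and TPM, which they had scaled by effective length and sequencing depth. The monocyte files list 54432 genes and the APC file 22242. Here TPM was rescaled over the 22238 common genes, which held 84.9% and 85.3% of the TPM of bone marrow and spinal cord monocytes, and estimated counts were rounded.

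The log2 ratio of 2 libraries was described by gamma posteriors (1 added to each read count) after division by median-of-ratios size factors, following the definition of GFold. Its percentiles 1 and 99 bound the 98% interval. The call was tested on simulated counts with planted changes and counting error only, which leaves spread between libraries unchecked. TPM has 95% Wilson intervals and a floor of 3 reads, which cover counting error only, since PCR copies are not independent molecules. Gene names and positions were those of GENCODE M21 (GRCm38), where the versioned identifier was found for 99.0% of the common genes, and RefSeq (GRCm38.p6) gave the promoters.

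The 10 genes and all lists were chosen with earlier results of these data known, so no list was tested. Named were the 10 genes, the most abundant or called genes of 8 lists (78 genes around them) and sums over 14 lists of cell type markers, and further genes of the 8 lists were named after their values were seen. The alternatives were total reads, TMM factors, effective length, an assumed spread, other TPM thresholds, 0.5 reads added, a plain 2-fold change, other gene sets and TPM pseudocounts. TMM factors came from edgeR 4.0.16 in R 4.3.3, and all else from scipy 1.17.1, numpy 2.4.6, pandas 2.3.3 and matplotlib 3.10.9 under Python 3.11.15.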

Additional observations from a re-analysis of the deposited data

How the results depend on the processing

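No paired analysis was possible because each population has 1 library. The 8 genes called higher in cord monocytes, and the 8 in APCs, than in marrow monocytes were 8 under every alternative tried except without a TPM threshold, where the count was 9 with Igf1. Between cord monocytes and APCs, 1 gene was called higher and 1 lower. With an assumed coefficient of variation of 0.2 or of 0.4 these counts were 0 and 0, and by a plain 2-fold change 3 were called lower. No log2 ratio of the 9 genes with a measurable fold change changed sign. With a pseudocount of 1 on TPM the ratios between the monocyte libraries ran from 0.88 for Igf1 to 8.21 for Vegfa, since 1 TPM exceeds the marrow level of each gene but Thbs1 and Osm, and with 0.1 from 2.74 to 9.12. Of the 78 genes around them, 16 were called higher and 6 lower between the monocyte libraries. Without a TPM threshold 35 were called higher, and with an assumed coefficient of variation of 0.4 the count was 10. With 0.2 or 0.4, 0 were called lower. From cord monocytes to APCs 1 was called higher and 2 lower. Here total reads gave 2 higher, effective length 3 higher and 1 lower, a plain 2-fold change 3 higher, and an assumed spread of 0.2 or 0.4 gave 0 and 0. In APCs against marrow monocytes 15 were called higher, or 35 without a TPM threshold, and 7 lower, or 2 and 0 with the assumed spreads of 0.2 and 0.4. Scaling by total reads shifted the median log2 ratio of the genes over 3 TPM between the monocyte libraries by -0.18, and all genes of the monocyte files by -0.25. In TPM as deposited the 10 genes summed to 107 in marrow monocytes and 2538 in cord monocytes. Depth limits Ereg, Areg, Hbegf and Igf1 in the marrow, where each had 6 reads or fewer.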
